A study of Arabidopsis thaliana with 9 samples.

Results

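The 6 genes described here act in the vascular tissue of Arabidopsis thaliana. CLE44, DOF2.1 (AT2G28510) and PHV act in the procambium, OPS and CLE45 in the phloem, and IRX10 in the xylem. They were chosen by name, with earlier results of these data known. Each had 1 probe set that named it alone, so they are 6 of the 16542 genes measured in this way on all arrays. The array annotation lists IRX10 as GUT2, and the gene was matched through its gene ID to the locus AT1G27440.

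The data were log2 signals, so that 1 unit is a doubling, from Affymetrix arrays of suspension culture cells grown in the dark. The cells were of the line Alex, with the genetic background Col-0 (written Col-O in the labels). Cells of all 3 groups carried LHW and T5L1-GFP under an estrogen-inducible system. The groups were cells after 12 h with 5 µM estrogen, cells after 12 h without estrogen, and cells at 0 h, with 3 arrays each. The 0 h label speaks of estrogen for 0 h, and these cells were taken as the untreated start, which is an assumption. The series title names cells that overexpress LHW and T5L1-GFP, which are basic helix-loop-helix transcription factors. There was no group of estrogen-treated cells without the inducible genes, so an effect of estrogen itself cannot be told apart from one of LHW and T5L1. The labels name no separate cultures for the replicates. The p-values thus rest on how far the 3 arrays within a group differ, pooled over the 3 groups. The fit also draws this spread towards that of the other probe sets. The spread between arrays may be technical.

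Procambium cells are the undifferentiated cells from which phloem and xylem form. In the root, LHW pairs with TMO5 and its relative T5L1 and promotes the divisions of these cells. Small secreted peptides of the CLE family are read by receptor kinases and set the balance between division and differentiation. The peptide TDIF, made from CLE41 and CLE44, is sent from the phloem to the receptor PXY in the procambium, where it restrains xylem differentiation.

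LHW itself read 10.72, 11.05 and 11.24 with estrogen, against 8.72, 8.60 and 8.14 without it and 8.60, 8.71 and 8.22 at 0 h, in the order of replicates 1 to 3. All 3 induced arrays lay above the other 6, as the labels imply. T5L1 had no probe set of its own in the annotation and was not analysed here. Arrays of replicate 3 stood apart in every group: the median probe set lay 0.30 to 0.32 above the mean of replicates 1 and 2. On those arrays 19.3% of all probe sets held 1 value on all 3 arrays, against 0.0496% for replicate 1 and 0.0418% for replicate 2. OPS, CLE45 and IRX10 were among them, so their differences within replicate 3 are exactly 0. The arrays of replicate 3 also lacked 98 rows that the other 6 arrays held, and held 98 rows of their own. Whether replicate 3 was processed in a separate run is not given in the sources used here, so what its offset and equal values stand for is unknown. Results for replicates 1 and 2 alone are given for each of the 6 genes. On the 6 arrays of replicates 1 and 2, the median of 23 background rows was 4.20 on the log2 scale, and individual readings of them spanned 1.08 to 8.20. A level near or below that median is not shown to be clear of background, and the arrays of replicate 3 had no such rows.

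CLE44 changed with time in culture. It read 9.18, 9.30 and 10.06 after 12 h with estrogen, against 9.56, 9.52 and 10.25 without estrogen and 11.55, 11.48 and 11.81 at 0 h. Every array taken at 12 h was below every array taken at 0 h, while the groups with and without estrogen overlapped. Without estrogen CLE44 fell to 9.78 ± 0.41 (SD, n = 3), against 11.62 ± 0.17 at 0 h (SD, n = 3). This is a fold change of 3.58, with a log2 difference of -1.84 (SE 0.28, 95% interval -2.48 to -1.20) and adjusted p = 0.000769 in limma, adjusted over all 38310 probe sets. A call here means an adjusted p under 0.05. With estrogen the fall against 0 h was 4.30-fold (log2 difference -2.10, SE 0.28, adjusted p = 0.000349).

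A fall of the size of CLE44 was uncommon on these arrays. A log2 difference of -1.84 or lower in cells without estrogen against 0 h was reached by 3.44% of all probe sets. Within replicate numbers, the difference was -1.99, -1.96 and -1.56 without estrogen, and -2.38, -2.18 and -1.75 with it. Replicate 3 thus held the smallest fall of CLE44 in both comparisons. In replicates 1 and 2 alone the differences were -1.98 and -2.28.

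DOF2.1 encodes a Dof zinc finger transcription factor, known from the root as a gene that LHW and its partners activate in the procambium. It read 7.10, 7.18 and 6.60 after 12 h with estrogen, against 7.10, 7.04 and 6.99 without estrogen and 5.41, 5.40 and 6.17 at 0 h. All 6 arrays at 12 h were above all 3 arrays at 0 h, and the groups with and without estrogen overlapped. Without estrogen DOF2.1 rose 2.604-fold against 0 h, with means of 7.04 ± 0.06 without estrogen and 5.66 ± 0.44 at 0 h (SD, n = 3 each). The log2 difference was 1.38 (SE 0.25, 95% interval 0.82 to 1.94, adjusted p = 0.00178 in limma). With estrogen it rose 2.46-fold against 0 h (log2 difference 1.297, SE 0.25, adjusted p = 0.00241).

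The size of the DOF2.1 rise depended on replicate 3 and on the scaling. Within replicate numbers it was 1.69, 1.64 and 0.82 without estrogen, and 1.68, 1.78 and 0.43 with it. In replicates 1 and 2 alone the rise was 1.66 and 1.73 on the log2 scale. After quantile normalization it was 0.94 without estrogen and 0.81 with it, and it kept its call in both (adjusted p = 0.0201 and adjusted p = 0.0362). A rise of 1.38 or more was reached by 14.99% of all probe sets and by 6.72% of the probe sets with 1 gene.

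**Figure D1:**
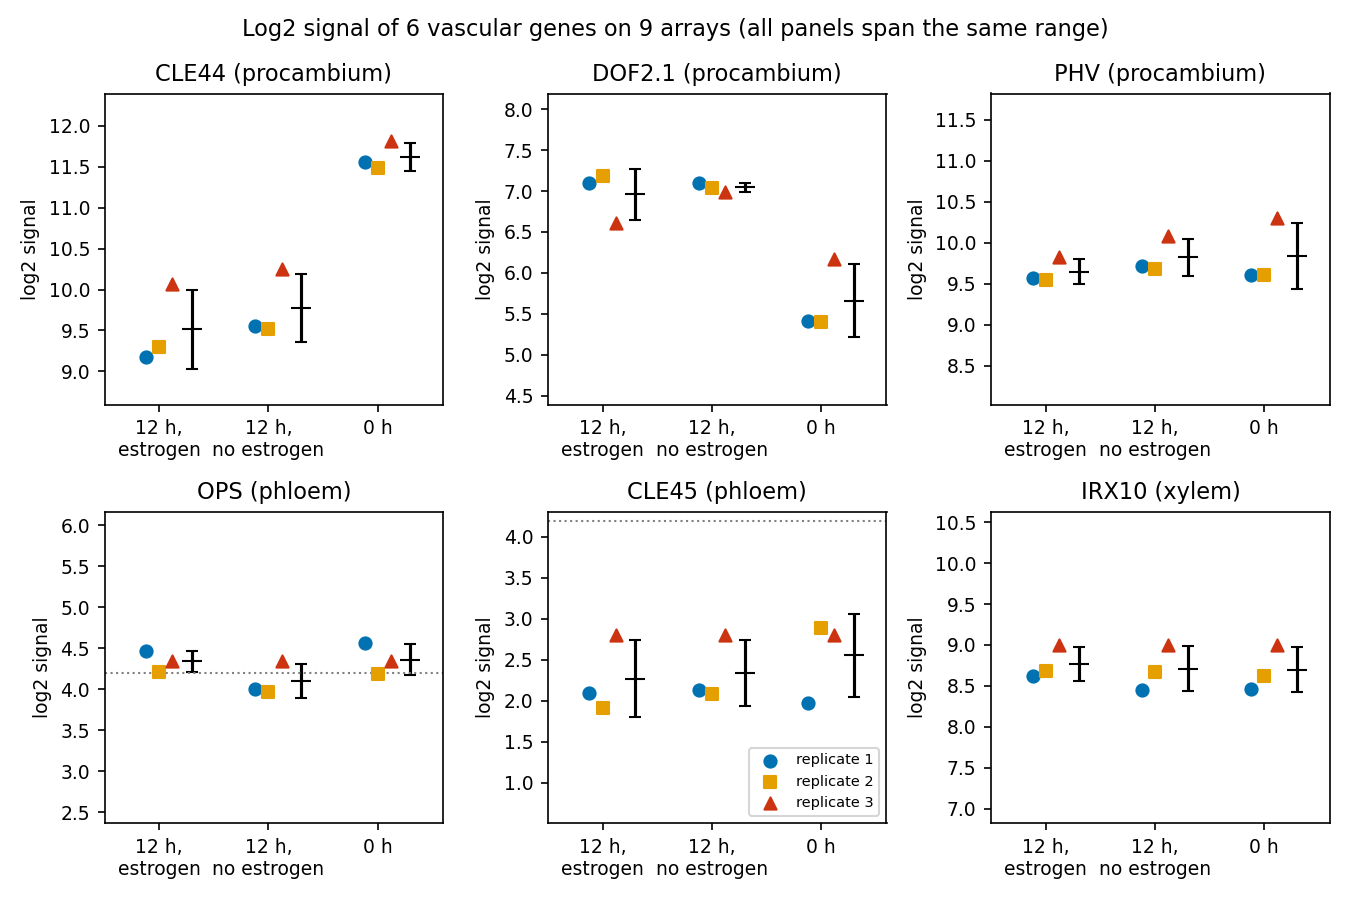
Log2 signal of the 6 genes on each of 9 arrays, with cells after 12 h with estrogen on the left, cells after 12 h without it in the middle and cells at 0 h on the right. Symbols are arrays, black bars are means ± SD (n = 3), and the dotted line is the median of the background rows (4.20). CLE44 lay at 9.18 to 10.25 in all 12 h arrays and at 11.48 to 11.81 at 0 h, DOF2.1 was higher at 12 h, and the groups overlapped for the other 4 genes.

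PHV encodes a class III homeodomain leucine zipper factor, one of a family that sets vascular patterning and the upper side of leaves. Its signal was 9.57, 9.54 and 9.82 with estrogen, against 9.71, 9.68 and 10.09 without estrogen and 9.60, 9.60 and 10.31 at 0 h. The 3 groups overlapped, and in each of them replicate 3 gave the highest value. Replicates 1 and 2 of PHV spanned only 9.54 to 9.71 over all 3 groups. PHV was not called in any comparison as deposited. Its log2 difference with against without estrogen was -0.18 (SE 0.23, 95% interval -0.70 to 0.34). It was -0.050 when replicate 3 without estrogen was left out, a fit that kept the higher replicate 3 with estrogen. It was -0.012 (SE 0.23) without estrogen against 0 h and -0.19 (SE 0.23) with estrogen against 0 h. After quantile normalization PHV was called lower with estrogen against 0 h (-0.43, adjusted p = 0.0422 in limma). In replicates 1 and 2 alone the 3 differences were -0.14, 0.093 and -0.045, in the same order.

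Of the phloem genes, OPS encodes a protein held at one end of developing sieve elements and needed for an unbroken phloem strand. OPS read 4.47, 4.21 and 4.34 with estrogen, against 3.9997, 3.97 and 4.34 without estrogen and 4.56, 4.19 and 4.34 at 0 h. Replicate 3 had the same value in all 3 groups, and 3 of the 9 readings lay below the background median. In replicates 1 and 2 OPS was 0.47 and 0.24 higher with than without estrogen. The fitted log2 difference of 0.24 (SE 0.18, 95% interval -0.16 to 0.64, unadjusted p = 0.211 in limma) was not called. Without estrogen against 0 h it was -0.26 (SE 0.18, adjusted p = 0.312), and it was called lower after quantile normalization (-0.57, adjusted p = 0.0414). Without replicate 3, OPS was at 0.36 with against without estrogen, at -0.39 without estrogen against 0 h and at -0.032 with estrogen against 0 h.

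CLE45 encodes a peptide that holds back the differentiation of early phloem cells through the receptor BAM3. CLE45 read 2.09, 1.92 and 2.80 with estrogen, against 2.13, 2.08 and 2.80 without estrogen and 1.97, 2.89 and 2.80 at 0 h. All 9 readings were below the background median, and the 2.80 of replicate 3 occurred in each group. The 0 h arrays of replicates 1 and 2 differed by more than any of the group means did. No difference of CLE45 was called, the largest being -0.29 (SE 0.33, 95% interval -1.04 to 0.47) with estrogen against 0 h. Without replicate 3 that difference was -0.43, and CLE45 was at -0.10 with against without estrogen and at -0.33 without estrogen against 0 h.

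IRX10 encodes a xylosyltransferase that lengthens the xylan backbone of secondary walls, as in xylem vessels. IRX10 read 8.62, 8.68 and 8.998 with estrogen, against 8.45, 8.68 and 8.998 without estrogen and 8.46, 8.63 and 8.998 at 0 h. The groups overlapped, with replicate 3 at 1 value throughout. The log2 differences of IRX10 were 0.060 (SE 0.21) with against without estrogen, 0.011 (SE 0.21) without estrogen against 0 h and 0.071 (SE 0.21) with estrogen against 0 h. None was called, and the intervals of all 3 lay between -0.47 and 0.55. Without replicate 3 they were 0.090, 0.016 and 0.11.

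The first comparison asked what estrogen did to these genes at equal time in culture. None of the 6 genes was called with against without estrogen, where limma called 0.0392% of all probe sets. At an unadjusted p under 0.05, 0 of the 6 genes and 2.23% of all probe sets passed. Among the probe sets with 1 gene the called share was 0.0239%, and every one of those calls was higher. With and without estrogen the groups overlapped for all 6 genes, whereas they did not overlap for 2.88% of all probe sets on the higher side and 1.4% on the lower side. The median log2 difference was -0.075 over the 6 genes and 0.018 over all probe sets. A missing call does not show that estrogen left these genes as they were. The 95% interval of CLE44 (-0.91 to 0.38) still allowed a level from 1.87-fold lower to 1.301-fold higher with estrogen. For DOF2.1 (-0.64 to 0.47) the bounds were 1.56-fold lower and 1.39-fold higher. For IRX10 (-0.42 to 0.54) they were 1.34-fold lower and 1.46-fold higher. These intervals come from the fit without the replicate number as a block. Replicate 3 of CLE44 lay 0.83 above the mean of replicates 1 and 2 with estrogen and 0.71 without it. This shared offset widens the interval of CLE44. For IRX10 the offsets were 0.35 with estrogen and 0.44 without it, and replicate 3 held the same value in both groups. That equal pair draws the estimate of IRX10 towards 0 (0.060, against 0.090 in replicates 1 and 2 alone).

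Within replicate numbers CLE44 was 0.38, 0.22 and 0.19 lower with estrogen, and PHV 0.14, 0.14 and 0.26 lower. In replicates 1 and 2 alone the difference of CLE44 was -0.30, against -0.26 with all arrays. It was -0.54 without the induced array of replicate 3 and -0.026 without the uninduced one. Each of these fits left the offset of replicate 3, 0.71 without estrogen and 0.83 with it, in 1 group only. A lower value in 3 of 3 replicate pairs also occurred for 8.32% of all probe sets. DOF2.1 differed by -0.005, 0.14 and -0.38, so its replicates did not share a direction. The plot of differences shows these values beside their intervals.

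**Figure D2:**
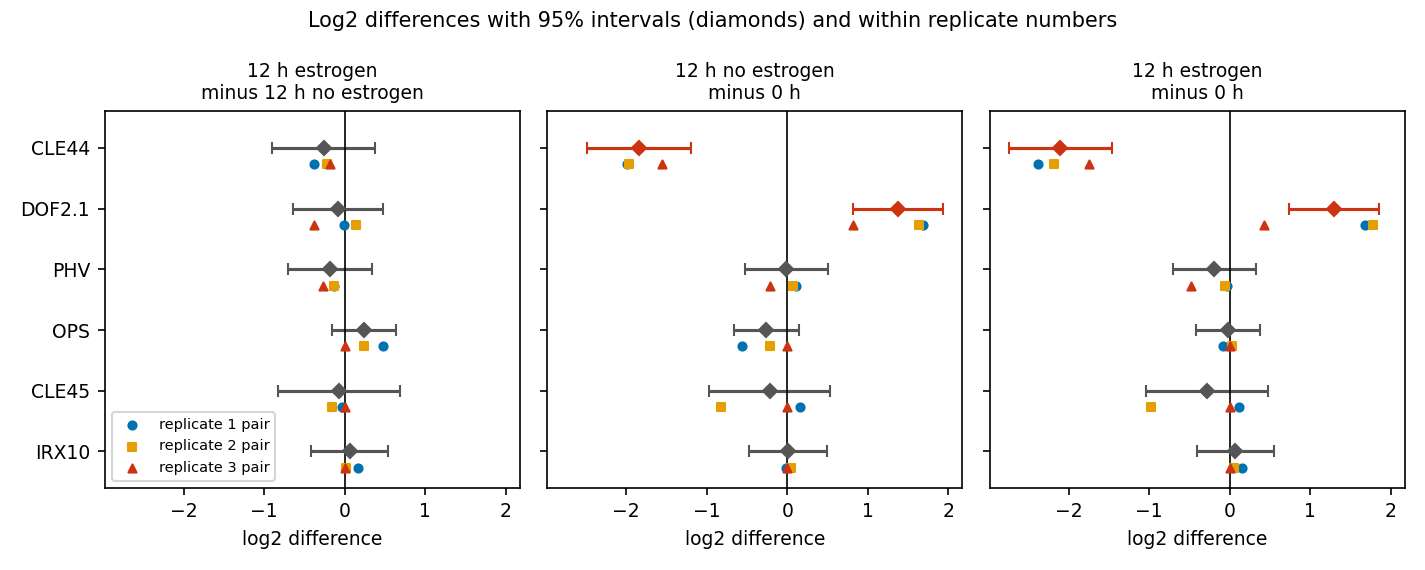
Log2 differences of the 6 genes in the 3 comparisons, with 95% intervals from limma (diamonds, red where called) and the difference within each replicate number below them. With against without estrogen every interval spans 0, while CLE44 (-1.84 and -2.10) and DOF2.1 (1.38 and 1.297) stand apart from 0 in both comparisons with 0 h.

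The other comparisons asked what 12 h in culture did, without and with induction. Both use the same 0 h arrays, so their results are not independent. Without estrogen 2 of the 6 genes were called, 1 lower (CLE44) and 1 higher (DOF2.1), where limma called 39.3% of all probe sets (11.9% lower and 27.4% higher). With estrogen the same 2 genes were called in the same directions, against 39.9% of all probe sets (11.7% lower and 28.2% higher). Over the probe sets with 1 gene, 29.9% were called without estrogen (13.6% lower and 16.3% higher) and 30% with it (13.6% lower and 16.4% higher). A share of 2 in 6 is near the background in both. In cells without estrogen against 0 h, groups that did not overlap occurred for 14.6% of all probe sets on the lower side, as for CLE44, and for 30.9% on the higher side, as for DOF2.1. With estrogen these shares were 14.6% and 31.6%. The median log2 difference was -0.12 over the 6 genes and 0.12 over all probe sets without estrogen, and -0.11 and 0.12 with estrogen. In bulk samples a change in the number of cells of a type and a change in RNA per cell cannot be told apart. This holds for the fall of CLE44 and the rise of DOF2.1.

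How these genes move with time also depends on the scaling of the arrays. Without estrogen against 0 h, the deposited values gave a median of 0.12 over all probe sets. Quantile normalization gave -0.065, and centring each array on its median gave -0.35. Over the probe sets with 1 gene it was -0.00029 as deposited. Quantile normalization called 3 of the 6 genes in each comparison with 0 h, the third being OPS without estrogen and PHV with it, both lower. After the centring all 6 genes were called, with DOF2.1 higher (0.92) and the other 5 lower, among them PHV (-0.48), OPS (-0.73), CLE45 (-0.68) and IRX10 (-0.45). CLE44 was called lower and DOF2.1 higher in both comparisons with 0 h under all 21 alternatives run. The log2 difference of CLE44 without estrogen against 0 h ranged from -2.30 to -1.71 over them, and that of DOF2.1 from 0.92 to 1.66.

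**Figure D3:**
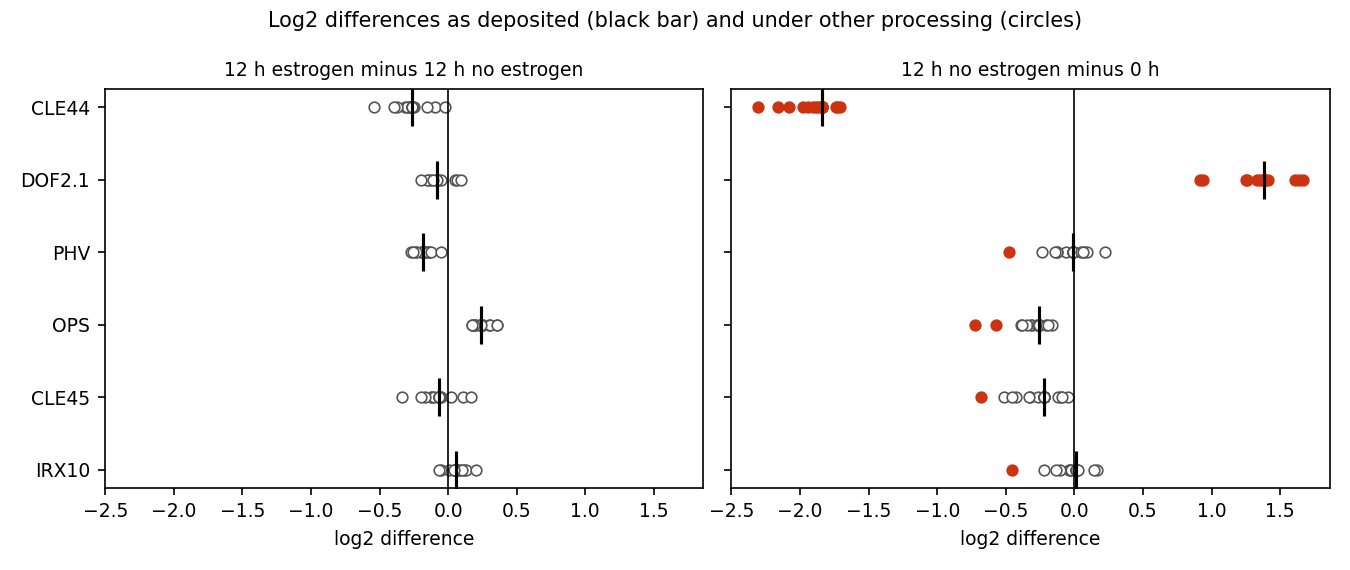
Log2 differences of the 6 genes as deposited (black bar) and under each alternative (circles, red where called), with against without estrogen on the left and without estrogen against 0 h on the right. On the right CLE44 (-2.30 to -1.71) and DOF2.1 (0.92 to 1.66) are red throughout, and on the left no circle is red.

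A wider list of 56 vascular loci held 12 with a probe set of their own, namely 6 of 20 for the procambium, 4 of 14 for the phloem and 2 of 22 for the xylem. These 12 include the 6 genes above. None of the 12 was called with against without estrogen, beside 0.0392% of all probe sets, and at an unadjusted p under 0.05 the count was also 0. Without estrogen against 0 h, 2 of the 12 were called higher and 1 lower, beside 27.4% and 11.9% of all probe sets. With estrogen 1 was called higher and 1 lower, beside 28.2% and 11.7%. Both counts are near or below the background.

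The third call was CLE25, which encodes a peptide of the CLE family made in the phloem. CLE25 read 4.85, 5.08 and 4.99 with estrogen, against 5.40, 5.601 and 4.99 without estrogen and 4.46, 4.61 and 4.54 at 0 h. All arrays at 12 h were above those at 0 h. In replicates 1 and 2 CLE25 was 0.55 and 0.52 lower with than without estrogen, while in replicate 3 the values were equal. CLE25 rose without estrogen against 0 h by 0.79 (SE 0.19, adjusted p = 0.00781 in limma). Its 0 h readings lay only a little above the background median of 4.20, so that the size of the rise is uncertain. With estrogen against 0 h it was at 0.44 (SE 0.19, adjusted p = 0.097), and at adjusted p = 0.0396 with the replicate number as a block. With against without estrogen it was at -0.36 (SE 0.19, 95% interval -0.78 to 0.063, unadjusted p = 0.0866 in limma), which was not called. The rise of CLE25 without estrogen was not called after quantile normalization (0.40, adjusted p = 0.202) or centring (0.33, adjusted p = 0.257).

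CLE41, the other gene for TDIF, did not move as CLE44 did. It read 3.54, 3.55 and 3.60 with estrogen, against 3.79, 3.33 and 3.65 without estrogen and 3.55, 3.64 and 3.48 at 0 h, all below the background median. Its log2 difference without estrogen against 0 h was 0.034 (SE 0.16). The levels of CLE41 and CLE44 come from different probe sets and were not compared with each other.

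The remaining list members were not called in any comparison. PEAR2, a Dof factor of the early phloem, was at 0.0071 (SE 0.21) with against without estrogen and at -0.20 (SE 0.21) without estrogen against 0 h. All 9 readings of PEAR2 lay below the background median, as did those of CLE26, whose replicate 3 stood 1.36 to 1.503 above the mean of replicates 1 and 2. MOL1, a receptor kinase that restrains the cambium, was at 0.011 (SE 0.17) and -0.083 (SE 0.17) in the same comparisons. IRX10-L, the close relative that shares the work of IRX10 in xylan synthesis, was at 0.082 (SE 0.15) and -0.15 (SE 0.15).

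Further relatives were added after the values of the members had been seen, namely CLE18, CLE22, CLE27 and CLE40, and the xylan synthesis genes IRX15 and IRX15-L. With them, 9 of the 30 CLE genes of RefSeq were measured. CLE40, whose peptide acts in the stem cell niche of the root tip, read 5.80, 5.93 and 6.15 with estrogen, against 5.95, 5.96 and 5.99 without estrogen and 4.47, 3.54 and 3.61 at 0 h. Both groups at 12 h were above all 0 h arrays and overlapped each other. CLE40 rose without estrogen against 0 h by 2.09 (SE 0.25, adjusted p = 0.000176 in limma), where 2 of the 0 h readings lay below the background median, so that the size of the rise is uncertain. With estrogen it also rose by 2.09 (SE 0.25), and with against without estrogen it was at -0.0051 (SE 0.25). The other 5 added genes were not called in any comparison, and CLE18, CLE22, CLE27 and IRX15 lay below the background median on all 9 arrays.

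Over the 9 measured CLE genes, CLE40 among them, 2 rose and 1 fell without estrogen against 0 h, with a median of 0.034, where 39.3% of all probe sets and 29.9% of those with 1 gene were called. With estrogen 1 rose and 1 fell, where the shares were 39.9% and 30%. CLE41, CLE45, CLE26, CLE18, CLE22 and CLE27 were below the background median on all 9 arrays. With against without estrogen the 9 log2 differences ran from -0.36 to -0.0051, and none was called or had an unadjusted p under 0.05. A difference below 0 was also found for 44.4% of all probe sets. Signs turned under some alternatives, as for CLE40 (0.0073) after centring on probe sets with 1 gene. CLE45 was at 0.17 without the uninduced array of replicate 3, a fit that left the high reading of replicate 3 in 1 group only. In replicates 1 and 2 alone CLE45 was at -0.10.

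**Figure D4:**
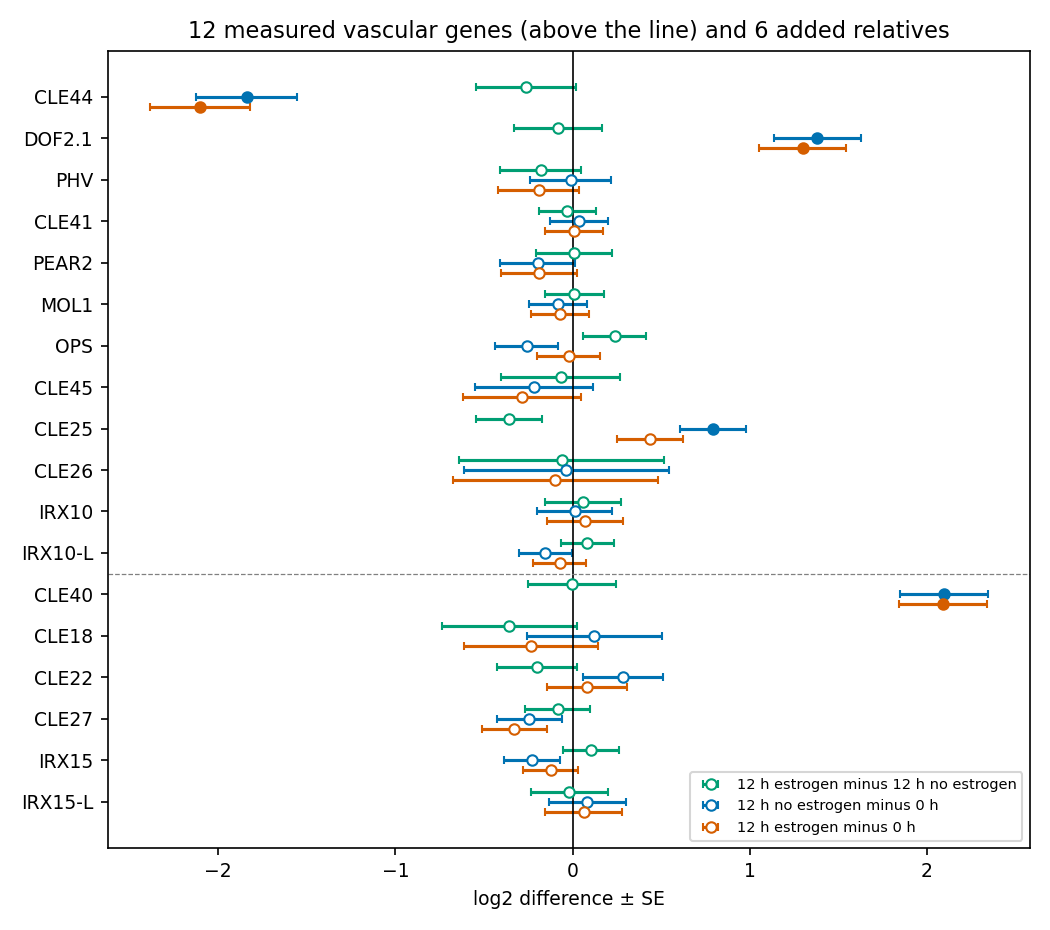
Log2 differences ± SE of the 12 measured vascular genes (above the dashed line) and of 6 relatives added later, in the 3 comparisons. Filled circles were called by limma: CLE44 lower, DOF2.1 and CLE40 higher in both comparisons with 0 h, and CLE25 higher (0.79) without estrogen against 0 h.

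Markers of other cell types were measured for 4 of 11 listed loci. RCA, the Rubisco activase of green tissue, fell without estrogen by 3.20 and with estrogen by 2.95 on the log2 scale against 0 h (SE 0.29 for each). The root hair genes EXPA7 and EXPA18 and the endodermis gene SGN3 were not called. EXPA18 and SGN3 lay below the background median on all 9 arrays, and EXPA7 on 8 of 9. RCA moved in the same direction as CLE44, as did the 11.9% of all probe sets called lower without estrogen against 0 h. Any link between RCA and CLE44 was not tested. The defining xylem genes VND6, VND7 and XCP1 and the phloem gene APL had no probe set that named them alone and were not analysed here, so the vascular identity of the cells was not checked with them.

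Likeness of pattern was measured as Pearson r over the 9 arrays, among 16536 genes. The r is a description, since the arrays share groups and the offset of replicate 3. CLE44 was most like AT5G47435 (r = 0.999), AT4G14615 (0.997) and AT5G28350 (0.994), and 1655 genes had an r over 0.9 with it. Those 3 genes were also lower at 12 h, with AT5G47435 at 5.87 with estrogen, 5.98 without estrogen and 7.06 at 0 h. DOF2.1 was most like AT3G43610 (0.990), AT3G27950 (0.986) and AT2G34355 (0.983), with 1008 genes over 0.9. AT3G27950 averaged 10.45 with estrogen and 10.39 without it, against 8.11 at 0 h. AT3G43610 averaged 10.36 with estrogen and 10.36 without it, against 10.15 at 0 h, since r does not measure the size of a change.

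The other 4 genes had no called difference as deposited. PHV was most like AT1G10020 (0.978), AT2G24692 (0.955) and SIM (0.952), a cell cycle inhibitor, with 87 genes over 0.9. OPS had the fewest genes over 0.9, which were 15, led by AT3G46260 (0.965), AT4G05071 (0.956) and AT5G35405 (0.947). CLE45 was most like AT4G30460 (0.989), AT1G30974 (0.988) and AT5G27880 (0.986), with 118 genes over 0.9. The group means of these genes were also below the background median. IRX10 was most like CFM3B (0.990), AT3G61030 (0.988) and AT4G33380 (0.986), with 764 genes over 0.9. Many genes with a high r thus also occurred for a gene without a called difference. The spread within groups differed among the 6 genes, from an SD of 0.18 for OPS, which was above that of 16.5% of all probe sets, to 0.46 for CLE45, above that of 76.1%. The equal readings of replicate 3 for OPS, CLE45 and IRX10 enter these values.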

How the data were processed

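Each of the 9 deposited columns held 1 log2 signal for every probe set. Expression Console 1.3 from Affymetrix is the tool named in the submitters' processing notes, and how the authors summarised probes and scaled arrays is not given in the sources used here. Of 38506 rows, 196 were left out because some arrays lacked them: 98 with control names were on replicates 1 and 2 only, and 98 numbered ones on replicate 3 only. Replicate 3 was set against the others as a batch block in 1 alternative. The platform annotation named 1 gene for 16722 probe sets, of which 16574 were found in RefSeq (TAIR10.1, used for names only).

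All 9 arrays entered 1 linear model of the 3 group means in limma 3.58.1 under R 4.3.3 (lmFit and eBayes, prior degrees of freedom 3.07) and tested two-sided. P-values were adjusted by Benjamini-Hochberg over 38310 probe sets. The fit was tested on simulated data with independent normal noise, which held no offset of replicate 3 and no equal readings. That test cannot show how the fit behaves with those features. Plots used Python 3.11.15 and matplotlib 3.10.9.

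Members, lists and tests were chosen with earlier results of these data known. The rule for naming was all 6 genes, every measured gene of the list and the 3 genes most like each member. Arrays with the same number deviated together (correlation of deviations from the group means 0.17 to 0.62, over 0.1 in every pair). These group means include replicate 3, which stood apart in every group. Its shared offset alone moves the deviations of the other arrays the same way in each group. The correlations thus cannot show whether the numbers pair the samples, and the pairing used here is an assumption. The blocked value is given where it changes a call. The number of arrays limits the precision.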

Additional observations from a re-analysis of the deposited data

How the results depend on the processing

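Of 21 alternatives, 12 changed the fit, scaling, filter or threshold and 9 left out 1 array each. With against without estrogen, none of the 6 genes or of the 12 list genes was called under any of them. With the replicate number as a block, 0, 2 and 2 of the 6 genes were called in the 3 comparisons, as without it, and 0, 3 and 3 list genes, where CLE25 with estrogen against 0 h was the call gained. The block changed no other call. A block for replicate 3 against the others gave the same counts, CLE25 again being gained (adjusted p = 0.0418 in limma). Centring on the median of all probe sets called all 6 genes in both comparisons with 0 h, and 9 (8 lower) and 10 (9 lower) list genes without and with estrogen. Quantile normalization called 3 of the 6 genes (2 lower) and 4 list genes (3 lower) in each comparison with 0 h, so that list calls without estrogen were mostly lower there and mostly higher as deposited. The median of all probe sets also moved down under both settings, and the cause of the changed calls was not tested. Leaving out 1 array gave 2 and 2 calls of the 6 genes in the comparisons with 0 h.

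Signs turned only for differences that were not called as deposited. Without estrogen against 0 h, PHV was at 0.068 with array weights and 0.093 in replicates 1 and 2, and IRX10 at -0.22 after quantile normalization, -0.45 after centring on all probe sets, -0.037 after centring on probe sets with 1 gene and -0.032 with array weights. With estrogen against 0 h, IRX10 was at -0.18 and -0.45 after quantile normalization and centring on all probe sets, and CLE25 at -0.082 after that centring. With against without estrogen, DOF2.1 was at 0.047 with array weights and 0.067 in replicates 1 and 2, and CLE40 at 0.0073 after centring on probe sets with 1 gene. Leaving out 1 array in turn, with against without estrogen, gave -0.54 to -0.026 for CLE44, -0.27 to -0.050 for PHV, -0.19 to 0.095 for DOF2.1, -0.33 to 0.17 for CLE45, -0.069 to 0.21 for IRX10 and -0.10 to 0.075 for CLE40. Without estrogen against 0 h it gave -0.14 to 0.22 for PHV and -0.13 to 0.16 for IRX10. With estrogen against 0 h it gave -0.31 to 0.043 for PHV, -0.11 to 0.077 for OPS and -0.045 to 0.22 for IRX10. These ranges include fits without only 1 array of replicate 3, where its offset stayed in the other group. Signal over background limits CLE45, CLE41, CLE26, PEAR2, CLE18, CLE22, CLE27 and IRX15, and OPS, CLE25 and CLE40 in part. It also limits the markers EXPA7, EXPA18 and SGN3.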
